A study of Mus musculus with 23 samples.

Results

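Hippocampi of mice with the P301S tau transgene were compared with wild-type (WT) hippocampi, all from mice kept in normal air (normoxia). By the genotype and condition labels the comparison holds 11 of the 23 RNA-seq libraries of the study, 5 P301S normoxia and 6 WT normoxia, and it was made over the 17788 genes that passed a filter on low counts, of 52636 genes in the count files. The other 12 libraries, 6 WT hypoxia and 6 P301S hypoxia, came from mice whose exposure the series title calls chronic intermittent hypoxia; their values are set beside those of normoxia for the same genes, and they enter the shared estimate of the spread behind every test. With the 11 normoxia libraries fitted alone, 368 genes were called in place of 1130. All 4 groups share a mixed background (C57Bl6 + Balbc), and RNA came from whole flash-frozen hippocampus. The labels give no transgene line or promoter, no age and no sex. They do not say either that each library came from its own animal, so the p-values reflect only how these libraries spread, and that spread may be technical. In the titles 5 of the 6 WT normoxia libraries carry one number (66) and differ by a suffix, WT replicate 6 carries 37, and the P301S replicates carry 43, 61, 62, 64 and 65. What the number stands for (an animal, a litter, a cage) is not stated, so whether those 5 WT libraries are independent cannot be told. The 6 WT hypoxia libraries likewise carry only 31 (4 libraries) and 32 (2 libraries), and they too inform the shared spread. Without WT normoxia replicate 6 the normoxia calls given below number 713.

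Tau, the product of Mapt, binds microtubules and is most abundant in axons. P301S is a mutation in the microtubule-binding repeats of human tau that causes familial frontotemporal dementia; it loosens the hold of tau on microtubules and favours its aggregation. In mice that express human P301S tau, phosphorylated tau gathers in neurons of the hippocampus and other regions, and loss of synapses, gliosis and loss of neurons follow with age. The comparison asks which RNAs of the hippocampus differ with the transgene in the absence of hypoxia.

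Levels are in CPM, a gene's count relative to the library's total, which is scaled by its TMM factor. Differences are log2 fold changes of P301S over WT as fitted by edgeR, each given with its standard error (SE), and a gene was called, and is said to have risen or fallen, when the Benjamini-Hochberg adjusted p of edgeR's quasi-likelihood test over all 17788 genes was below 0.05. Levels of single genes are given for P301S replicates 1 to 5 in that order, and for WT as the lowest to the highest of 6 libraries with the median. Since whole tissue was sequenced, fewer cells of a type and less RNA per cell cannot be told apart in any value below.

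The libraries held 22830970 to 25820145 counts each, with TMM factors from 0.971 to 1.03, and mitochondrial RNAs took 2.25% to 2.72%. Hippocampal markers were present: all 14 markers of CA1 pyramidal cells and all 18 of dentate granule cells passed the filter on low counts. So did all 13 markers of striatum, 16 of choroid plexus and 14 of meningeal fibroblasts, so passing the filter does not identify the tissue. Markers of choroid plexus, a tissue that lies against the hippocampus, varied widely within both groups. Ttr, which encodes the choroid plexus carrier protein transthyretin, was at 690.5, 653, 2152, 2711 and 474 CPM in the P301S libraries and at 68.4 to 3176 (median 2650.5) CPM in WT, where WT normoxia replicate 4 was the low one. Counts over whole gene bodies were taken without strand, and read pairs over more than 1 gene were dropped. A gene that lies under another can therefore be listed at 0 whatever its expression, as were 51 members of the lists used below, among them the astrocyte gene Gfap and the microglial gene P2ry12.

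At the prion locus, P301S and WT libraries separated completely. Prn (ENSMUSG00000098754, chr2:131909957-131956130, GRCm38), a gene that spans the prion protein gene Prnp, was at 3.53, 3.48, 3.33, 4.69 and 4.65 CPM in P301S and at 0.0413 to 0.315 (median 0.263) CPM in WT (log2 4.06, SE 0.275, adjusted p = 1.44e-09). Lamr1-ps1 (ENSMUSG00000081229, chr2:131904086-131904959), a processed pseudogene beside it, had 365 counts in the 5 P301S libraries and 0 in the 6 WT libraries, at least 144-fold higher if the WT group is set at a floor of 3 counts in all. Its P301S levels were 2.84, 1.503, 2.997, 3.59 and 3.86 CPM. Every library thus matched its genotype label at both genes. Both genes were named for their difference between these labelled groups, so the match is not an independent check of the labels. The labels do not name the promoter of the transgene, and 73.1% of Prn lies under other genes. Mapt itself, the mouse tau gene, was at 676, 716, 711, 681 and 780.3 CPM in P301S and 648 to 741 (median 670) CPM in WT and did not pass the test (log2 0.06, SE 0.0544, adjusted p = 0.558); whether reads of a human transgene were counted there was not tested. Ddx3y, a gene of the Y chromosome, was at 93.7, 111, 112, 110.2 and 123 CPM in P301S and 84.6 to 123 (median 93.2) CPM in WT, so Y-chromosomal RNA was present in all 11 libraries.

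In P301S hippocampi, many RNAs for respiratory complexes, ribosomal proteins and chaperones of secreted proteins were reduced. Many RNAs from synaptic adhesion genes, whose gene bodies are very long, were raised. Of 41 such genes tested 16 rose and 0 fell, with a median log2 fold change of 0.20. After the correction for gene-body length and GC content described below, 5 rose, 1 fell and the median was 0.01. Of the 17788 genes, 1130 were called (6.35%), of which 458 rose (2.57%) and 672 fell (3.78%), and 4064 (22.8%) had an unadjusted p below 0.05. The changes were small: the median absolute log2 fold change of the called genes was 0.31, 203 exceeded 0.5 and 47 exceeded 1. For 408 of the called genes, 191 that rose and 217 that fell, the P301S and WT values did not overlap; over all genes tested, 1.62% lay wholly higher and 1.72% wholly lower in P301S. The number called depended on single libraries. It was 365 without P301S normoxia replicate 2, 540 to 577 without P301S normoxia replicates 3, 4 or 5, 629 to 746 without WT normoxia replicates 2, 3, 5 or 6, 1914 without P301S normoxia replicate 1 and 2069 without WT normoxia replicate 1.

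Genes that rose and genes that fell differed in length and base composition. Genes that rose had a median gene body of 92.6 kb and a median GC content of 46.3%, genes that fell 5.75 kb and 53.4%, and all tested genes 22.3 kb and 49.4%. Among the longest 10% of genes (132 to 4435 kb) 191 rose and 0 fell, and among the shortest 10% (0.057 to 2.92 kb) 9 rose and 174 fell. Of the genes that rose, 71 (15.5%) were long non-coding RNAs against 5 (0.744%) of those that fell, while 58 genes that fell (8.63%) and 8 that rose were processed pseudogenes. Over all tested genes these classes made up 10.4% and 4.82%.

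The relation with length was a property of whole libraries. The median level of the longest 10% minus that of the shortest 10%, each relative to the mean of all 23 libraries, was -0.06, 0.23, 0.13, 0.17 and 0.21 (log2) in P301S replicates 1 to 5. It was 0.01, -0.14, -0.17, -0.12, -0.21 and -0.20 in WT replicates 1 to 6. P301S replicate 1 was the only P301S library below 0 and WT replicate 1 the only WT library above 0, so the groups overlapped. After each library's trend with gene-body length and GC content was removed, 188 genes rose (1.06%) and 344 fell (1.93%), and 387 genes were called in both analyses, 156 higher and 231 lower. Because length moved with genotype, the counts without the length and GC trend are given beside most gene groups below as "trend removed". What underlies the relation was not tested.

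**Figure D1:**
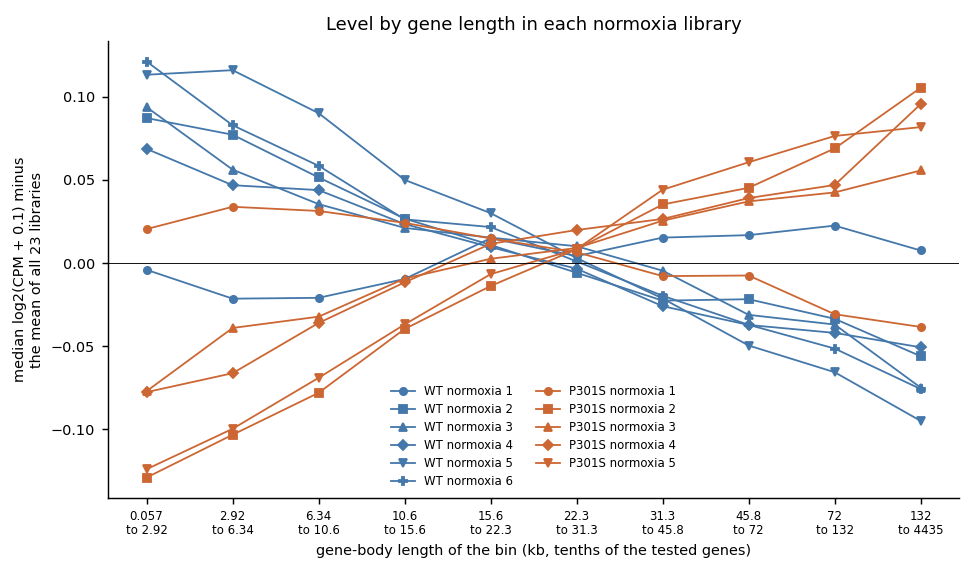
Median level of the tested genes in 10 bins of gene-body length (x axis, kb), one line per normoxia library (blue WT, orange P301S; y axis, median log2(CPM + 0.1) minus the mean of all 23 libraries). From the shortest to the longest bin, 4 of the 5 P301S lines climb and 5 of the 6 WT lines descend, while P301S replicate 1 (-0.06) and WT replicate 1 (0.01) stay nearly level.

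The nuclear genes of oxidative phosphorylation were lower in P301S as a group. These genes encode most subunits of the respiratory chain, which passes electrons to oxygen and pumps the protons that drive ATP synthase. Of 75 tested, 42 fell and 0 rose (3.78% of all genes fell). A negative fold change was found for 74, and the median log2 fold change was -0.22 against 0.01 over all tested genes. With the trend removed 23 fell (1.93% of all genes did), and the median was -0.18. Of the 13 mRNAs encoded by the mitochondrial genome, which supply core subunits of the same complexes, edgeR called 0 and the median was 0.01; 3 had an unadjusted p below 0.05, DESeq2 called 0 and limma voom 0.

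In complex IV, cytochrome c oxidase, 8 of 10 genes fell (median -0.29; trend removed 6). Cox6b1, the subunit that bridges its dimer, was at 102, 92.4, 101, 94.8 and 94.3 CPM in P301S and 114 to 128 (median 122) CPM in WT (log2 -0.32, SE 0.0511, adjusted p = 0.00149). The groups did not overlap for Cox6b1, and Cox5b and Cox8a, also subunits, fell by 0.38 (adjusted p = 0.00282) and 0.49 (adjusted p = 0.00352). In ATP synthase 7 of 16 fell (median -0.19; trend removed 5), and all 16 fold changes were negative. Atp5k, the membrane subunit e, was at 28.0, 25.9, 25.4, 27.8 and 28.2 CPM in P301S and 32.6 to 38.0 (median 35.2) CPM in WT (log2 -0.39, SE 0.0558, adjusted p = 5.55e-04), every P301S library below every WT library. Atp5b, the catalytic beta subunit, was at 764, 698, 684, 675 and 709.5 CPM in P301S and 759 to 890.1 (median 867) CPM in WT (log2 -0.28, SE 0.0472, adjusted p = 0.00266). For Atp5b the groups met, since P301S replicate 1 was just above WT replicate 1.

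In complexes II and III, 10 of 14 fell (median -0.21; trend removed 5), led by Uqcrfs1, the Rieske iron-sulphur protein of complex III, which fell by 0.27 (adjusted p = 0.00256), and Cyc1, its cytochrome c1, by 0.31 (adjusted p = 0.00925). In complex I, which takes electrons from NADH, 17 of 35 fell (median -0.21; trend removed 7). Ndufb9 and Ndufa10, accessory subunits, fell by 0.32 (adjusted p = 0.00509) and 0.22 (adjusted p = 0.00632). Around the chain, 4 of 18 genes of the citrate cycle and pyruvate entry fell (trend removed 4), among them malate dehydrogenase Mdh2 by 0.24 (adjusted p = 0.016). Of glycolysis 6 of 19 fell (trend removed 3), among them lactate dehydrogenase Ldha by 0.32 (adjusted p = 0.0117) and triose phosphate isomerase Tpi1 by 0.26 (adjusted p = 0.0152). Of mitochondrial protein import and prohibitins 7 of 24 fell (trend removed 4). The share of all genes that fell was 3.78%, and 1.93% with the trend removed. Without P301S normoxia replicate 2 the genes that fell numbered 4 in complex I, 2 in complexes II and III, 5 in complex IV, 1 in the citrate cycle, 2 in glycolysis and 2 in import. In ATP synthase the number called was 5 or more with any 1 of the 11 libraries left out, and without WT normoxia replicate 1 it had 12.

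Promoters of these genes are shown because many respiratory genes are known targets of the transcription factor NRF1. RefSeq promoters (GRCm38.p6, windows of 300 bases from upstream of the start to just inside the gene) were matched to 12571 of the tested genes and to 63 of the 75 nuclear oxidative phosphorylation genes. The NRF1 motif GCGCA, any base, GCGC, searched on both strands, was found in 18 of these 63 (28.6%), in 1202 of the 12571 (9.56%) and in 4.6% of all 32851 promoters of the table. It was in 77 of 502 promoters of genes that fell (15.3%) and in 17 of 318 of genes that rose (5.35%). It lay in 7 of 14 promoters of ATP synthase genes and 7 of 31 of complex I. In the windows shown, 5′ to 3′ on the strand of the gene, capitals mark the match.
Ndufs5 (chr4:123718260-123718299, minus strand): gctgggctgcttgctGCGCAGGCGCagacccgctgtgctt
Atp5h (chr11:115420036-115420075, minus strand): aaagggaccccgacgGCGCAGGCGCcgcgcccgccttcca
Ndufs5, a small subunit of complex I, fell by 0.30 (adjusted p = 0.0167). Atp5h, a stator subunit of ATP synthase, did not pass the test (log2 -0.18, SE 0.058, adjusted p = 0.0676), so a match was present in a promoter of a gene that was called and of one that was not. The motif is itself rich in G and C, and the shares were not adjusted for GC content or length.

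Cytosolic ribosomal protein genes were lower in both subunits. Of 74 genes tested, 42 fell and 0 rose (3.78% of all genes fell). They were 26 of 42 in the large subunit (median -0.25) and 16 of 32 in the small one (median -0.22). Rpl12, which lies at the base of the stalk that recruits elongation factors, was at 70.5, 58.8, 57.5, 60.6 and 59.8 CPM in P301S and 73.6 to 83.0 (median 75.6) CPM in WT (log2 -0.32, SE 0.0575, adjusted p = 0.00352). Rpl18 was at 47.2, 36.0, 39.1, 38.9 and 32.2 CPM in P301S and 49.1 to 57.6 (median 54.7) CPM in WT (log2 -0.47, SE 0.0879, adjusted p = 0.00444). For both genes all P301S libraries lay below all WT libraries, P301S replicate 1 closest to them. Without overlap were 6 of the 42 genes of the large subunit and 0 of the 32 of the small one, against 1.72% of all genes wholly lower in P301S. The counts of genes that fell depended on length and on several single libraries. They moved by over 1.5 times in 7 (large subunit) and 8 (small subunit) of 11 fits with 1 library left out. With the trend removed 7 large-subunit and 2 small-subunit genes fell (1.93% of all genes did). Without P301S normoxia replicate 2, where both were lowest, the numbers were 6 and 2. These short genes have near-identical pseudogene copies, between which reads can be split, so their levels are uncertain.

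The rest of the translation machinery was lower in part, where 3.78% of all genes fell (1.93% with the trend removed). Of mitochondrial ribosomal protein genes, whose products translate the mitochondrial RNAs, 15 of 70 fell (median -0.14; trend removed 7), with Mrps12 lower by 0.42 (adjusted p = 0.00474) and Mrpl49 by 0.24 (adjusted p = 0.00653). Of translation factors 8 of 35 fell (median -0.13; trend removed 4). Eif5a, the hypusine-bearing factor that relieves stalled ribosomes, was at 184, 156, 159, 159 and 157 CPM in P301S and 176 to 211 (median 208) CPM in WT (log2 -0.31, SE 0.0511, adjusted p = 0.00236). Its groups met only at P301S replicate 1 and WT replicate 1. Eef1b2, the exchange factor of elongation factor 1, fell by 0.25 (adjusted p = 0.00352) without overlap. Without P301S normoxia replicate 2, 6 mitochondrial ribosomal genes fell; translation factors numbered from 3 (without WT normoxia replicate 6, among others) to 16 (without WT normoxia replicate 1).

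**Figure D2:**
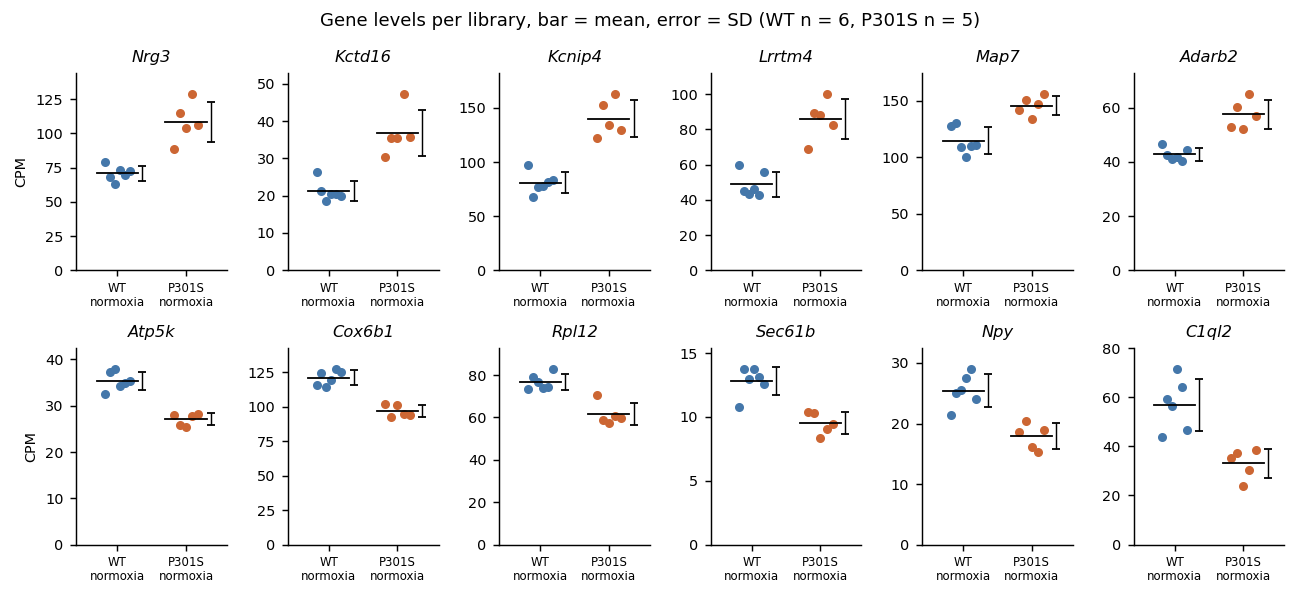
Levels (y axis, CPM, linear from 0) of 12 genes in each WT (blue, n = 6) and P301S (orange, n = 5) normoxia library; horizontal bars are means and error bars SDs. The first 6 panels rose and the last 6 fell in P301S, and in all 12 the P301S and WT points do not overlap. These 12 were picked from the called genes of these data, and of all 1130 called genes 408 were without overlap.

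Genes of protein folding in the lumen of the endoplasmic reticulum (ER) were lower in P301S. These chaperones and disulphide isomerases fold proteins bound for the membrane and for secretion, and the unfolded protein response raises them when folding falls behind. Of 23 genes 10 fell and 0 rose (median -0.15, trend removed 8). Among all genes tested 3.78% fell, and 1.93% with the trend removed. Hspa5, the main ER chaperone BiP, was at 187, 204, 209, 206 and 259 CPM in P301S and 241 to 348 (median 298) CPM in WT (log2 -0.44, SE 0.109, adjusted p = 0.0196); P301S replicate 5 lay within the WT range and the other 4 below it. Calr, the lectin chaperone calreticulin, was at 305, 285, 311, 295 and 348 CPM in P301S and 357 to 429.5 (median 394) CPM in WT (log2 -0.34, SE 0.0665, adjusted p = 0.00554). Pdia6, a disulphide isomerase, was at 88.7, 89.9, 97.3, 93.6 and 104 CPM in P301S and 108 to 148 (median 125) CPM in WT (log2 -0.41, SE 0.0823, adjusted p = 0.00569).

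For Calr and Pdia6 all P301S libraries lay below all WT libraries. So did Sdf2l1, a BiP partner, at 7.32, 5.07, 6.33, 4.58 and 6.58 CPM in P301S and 7.80 to 14.3 (median 10.1) CPM in WT (log2 -0.86, SE 0.164, adjusted p = 0.00509). Hyou1, a nucleotide exchange factor of BiP, fell by 0.30 (adjusted p = 0.0143), Creld2 by 0.46 (adjusted p = 0.0149) and the isomerase Pdia4 by 0.38 (adjusted p = 0.0193). Canx, the membrane-bound lectin chaperone calnexin, and Hsp90b1, the ER form of Hsp90, did not pass the test, with log2 fold changes of -0.01 (adjusted p = 0.913) and -0.12 (adjusted p = 0.411). Of the sensors and effectors of the unfolded protein response and of ER-associated degradation, 4 of 24 fell and 1 rose (trend removed 1 lower). All tested genes stood at 3.78% lower and 2.57% higher, and at 1.93% lower with the trend removed. Xbp1, the factor spliced by IRE1, was at 58.3, 57.2, 52.9, 51.6 and 63.0 CPM in P301S and 65.4 to 87.8 (median 76.0) CPM in WT (log2 -0.44, SE 0.0839, adjusted p = 0.00509), without overlap. The gene that rose was Mbtps2, the site-2 protease that cuts ATF6, by 0.24 (adjusted p = 0.0128). At the entry of the secretory pathway 7 of 39 fell (trend removed 4), with Sec61b of the translocon lower by 0.43 (adjusted p = 0.00282), Ssr2 of the translocon-associated complex by 0.37 (adjusted p = 0.00352) and Rpn1 of the oligosaccharyltransferase by 0.24 (adjusted p = 0.00352). Without P301S normoxia replicate 2, 4 ER lumen genes and 1 response gene fell, and 4 secretory genes fell without WT normoxia replicate 5, among others.

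Some promoters of ER genes carry a known control element, and a selection of those with a match is shown. The ER stress response element, CCAAT and CCACG with 9 bases of any kind between them, on either strand, which ATF6 and NF-Y are known to bind, was in 7 of the 18 ER lumen chaperone promoters matched (38.9%). It was in 19 of the 12571 promoters of tested genes (0.151%) and in 0.119% of all promoters of the table. In the windows below capitals mark the element, read 5′ to 3′ on the strand of the gene; for Hspa5 the element alone is shown.
Hspa5 (chr2:34772025-34772043, plus strand): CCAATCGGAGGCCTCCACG
Calr (chr8:84847060-84847108, minus strand): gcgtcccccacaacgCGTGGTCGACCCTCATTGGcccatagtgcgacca
Pdia6 (chr12:17266476-17266524, plus strand): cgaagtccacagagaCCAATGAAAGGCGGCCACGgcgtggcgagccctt
Creld2 (chr15:88819505-88819553, plus strand): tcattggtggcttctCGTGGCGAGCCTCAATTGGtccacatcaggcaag
Canx (chr11:50325785-50325833, minus strand): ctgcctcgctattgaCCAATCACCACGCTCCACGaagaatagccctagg
Dnajc3 (chr14:118937812-118937860, plus strand): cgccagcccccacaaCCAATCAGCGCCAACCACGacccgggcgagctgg
The element is inverted in Calr and Creld2. The first 4 genes fell, while Canx and Dnajc3, an inhibitor of the kinase PERK, carry the element and did not pass the test (-0.05 for Dnajc3, adjusted p = 0.734). Hsp90b1, with 2 elements, was not called either.

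In the hypoxia libraries the ER genes did not differ in the same direction. Of the 23 ER lumen genes edgeR called 0 there (1.87% of all genes were called). An unadjusted p below 0.05 was found for 10 of the 23 (18.2% of all genes), and DESeq2 called 5 of them and limma voom 0. Their median was 0.14 against -0.15 in normoxia. Hspa5 averaged 289 ± 40.4 CPM (SD, n = 6) in WT normoxia, 213 ± 27.2 CPM (n = 5) in P301S normoxia, 223 ± 12.97 CPM (n = 6) in WT hypoxia and 288 ± 51.6 CPM (n = 6) in P301S hypoxia. The genotype difference of Hspa5 was -0.44 in normoxia and 0.37 in hypoxia (adjusted p = 0.0646), and the difference between them, 0.81, passed the interaction test (adjusted p = 0.0435). That of Calr was -0.34 and 0.19 (interaction 0.53, adjusted p = 0.0407). Of the other ER lumen genes 0 passed it (0.0394% of all genes did), and 13 of the 23 had an unadjusted interaction p below 0.05 (9.43% of all genes). These 2 interaction calls were lost with limma voom, with the length trend alone removed and without the 6 libraries lowest in choroid plexus markers. They also rested on single libraries: with 1 of the 23 left out, Hspa5 was called in 3 and Calr in 7 of 23 fits.

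**Figure D3:**
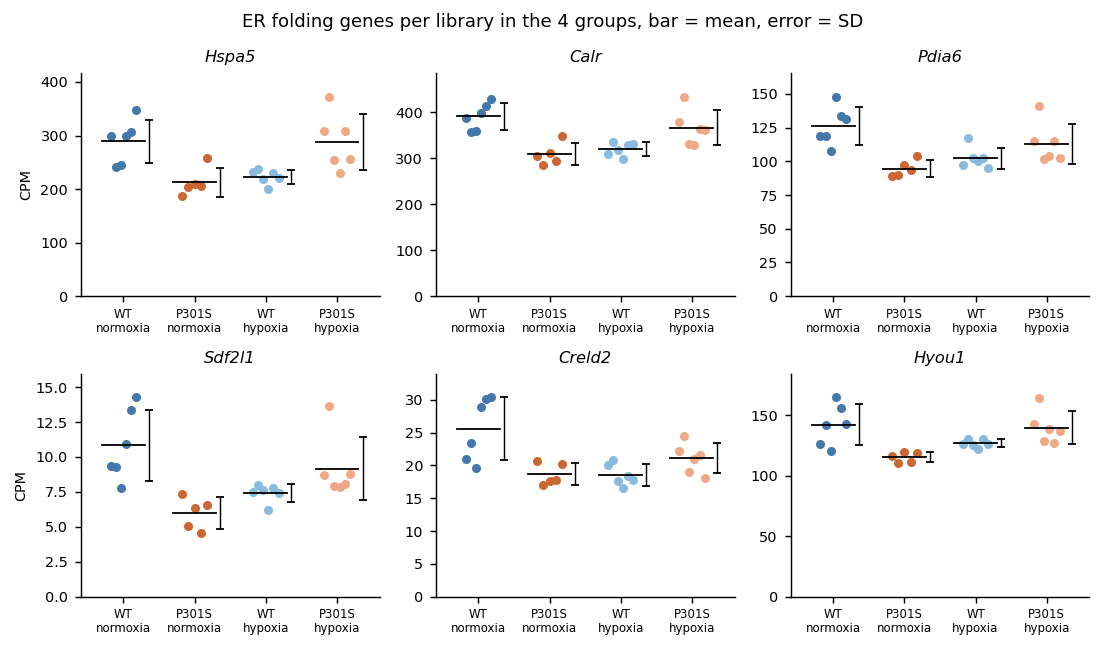
Levels (y axis, CPM, linear from 0) of 6 ER folding genes in every library of the 4 groups (WT n = 6, P301S normoxia n = 5, P301S hypoxia n = 6); bars are means, error bars SDs. In normoxia the P301S mean lies below the WT mean for all 6 genes, and in hypoxia it lies above it.

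Other arms of protein quality control also held genes that fell, against 3.78% of all genes (1.93% with the trend removed). Of 32 proteasome genes 9 fell (median -0.13; trend removed 5), with Psmd8, a subunit of the regulatory lid, lower by 0.23 (adjusted p = 0.00411) and Psmb4, of the catalytic core, by 0.31 (adjusted p = 0.00756). Of the cytosolic chaperonin and prefoldin, which fold tubulin and actin, 7 of 19 fell (trend removed 6), with Cct3 lower by 0.22 (adjusted p = 0.0168) and Pfdn1 by 0.20 (adjusted p = 0.0166). Of cytosolic heat shock proteins and cochaperones 4 of 31 fell (trend removed 2). The 4 were the Hsp90 cochaperones Stip1, Fkbp4, Ahsa1 and Cdc37, by 0.24 (adjusted p = 0.0104), 0.28 (adjusted p = 0.015), 0.18 (adjusted p = 0.0251) and 0.20 (adjusted p = 0.0448). Of lysosomal and v-ATPase genes 7 of 42 fell (trend removed 2), led by the proton pump accessory subunit Atp6ap1 (-0.17, adjusted p = 0.00944). Antioxidant genes fell in 7 and rose in 1 of 29 cases (trend removed 4 lower), with the peroxiredoxins Prdx2 and Prdx5 lower by 0.31 (adjusted p = 0.00794) and 0.31 (adjusted p = 0.00794) and the haem oxygenase Hmox2, counted at under 3 CPM, higher by 0.54 (adjusted p = 0.0494). Without P301S normoxia replicate 2 the genes that fell numbered 2, 1, 1 and 1 in the first 4 lists, and without P301S normoxia replicate 3 antioxidant genes that fell numbered 2.

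Genes that work with tau held calls in both directions. Of 22 microtubule-associated proteins, Map7, a recruiter of kinesin, rose by 0.35 (adjusted p = 0.00509) and Stmn3, a microtubule destabiliser of the stathmin family, fell by 0.29 (adjusted p = 0.00948), and the median was 0.02. Calls made up 4.55% in each direction in that list, 23.1% lower among tubulins and 13.9% lower among tau kinases and phosphatases, against 2.57% higher and 3.78% lower over all tested genes. Among the microtubule-associated proteins 1 rose and 1 fell with the trend removed. Map7 was at 141, 150.3, 133, 147 and 156 CPM in P301S and 100.1 to 130.2 (median 110.3) CPM in WT, without overlap. Of 13 tubulins 3 fell (Tuba1b, Tubb5 and Tuba1a), and 0 did with the trend removed or without WT normoxia replicate 4, among others. Of 36 tau kinases, phosphatases and regulators 5 fell (trend removed 3), among them the kinase ERK1 gene Mapk3 by 0.27 (adjusted p = 0.0069), the phosphatase genes Ppp5c and Ppp1ca by 0.19 (adjusted p = 0.0388) and 0.49 (adjusted p = 0.0487), and Cdk5 by 0.21 (adjusted p = 0.049). Only 1 of these 5 was called without WT normoxia replicate 5, among others.

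Several of the genes that rose with the lowest p were long genes of neurons. Nrg3, a neuregulin ligand of the receptor ErbB4, was at 88.5, 115, 104, 129 and 106 CPM in P301S and 62.9 to 79.4 (median 71.3) CPM in WT (log2 0.61, SE 0.0723, adjusted p = 3.34e-05). Kctd16, an auxiliary subunit of the GABA-B receptor, was at 30.3, 35.4, 35.5, 47.2 and 35.6 CPM in P301S and 18.5 to 26.3 (median 20.5) CPM in WT (log2 0.80, SE 0.0915, adjusted p = 2.17e-05). Kcnip4, an auxiliary subunit of Kv4 potassium channels, was at 122, 152, 134, 163 and 129.9 CPM in P301S and 67.6 to 97.4 (median 79.8) CPM in WT (log2 0.79, SE 0.106, adjusted p = 2.42e-04). For these 3 genes every P301S library was above every WT library, P301S replicate 1 the lowest and replicate 4 the highest of the P301S libraries.

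Lrrtm4, a postsynaptic adhesion protein of excitatory synapses, was at 69.2, 89.4, 88.2, 100.0 and 82.3 CPM in P301S and 43.0 to 60 (median 45.6) CPM in WT (log2 0.81, SE 0.108, adjusted p = 2.38e-04). The groups did not overlap for Lrrtm4. With the trend removed Nrg3 (0.37, adjusted p = 6.43e-04), Kctd16 (0.68, adjusted p = 2.96e-05), Kcnip4 (0.47, adjusted p = 0.00845) and Lrrtm4 (0.51, adjusted p = 0.00432) were still called.

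Many synaptic adhesion genes, themselves very long, rose: of 41 tested, whose median gene body was 805 kb, 16 rose and 0 fell (2.57% of all genes rose), with a median of 0.20. With the trend removed 5 rose, 1 fell and the median was 0.01. Il1rapl1, a partner of the presynaptic receptor PTPdelta, rose by 0.74 (adjusted p = 0.00256), the contactin Cntn5 by 0.70 (adjusted p = 0.00335), Opcml by 0.64 (adjusted p = 0.00311) and neurexin Nrxn3 by 0.31 (adjusted p = 0.00256); of these Nrxn3 was not called with the trend removed (0.02, adjusted p = 0.855). The very long genes of common fragile sites overlap this class and showed the same pattern: 13 of 24 rose and 0 fell (median 0.28). With the trend removed 1 rose and 1 fell (median 0.02). The one that rose was Fhit, at 5.73, 8.63, 10.2, 10.95 and 10.4 CPM in P301S and 3.85 to 7.03 (median 4.58) CPM in WT (log2 0.92, SE 0.162, adjusted p = 0.00311), where P301S replicate 1 lay within the WT range. Csmd1, a complement-regulating membrane protein, and Magi2, a synaptic scaffold, rose by 0.40 (adjusted p = 4.48e-04) and 0.32 (adjusted p = 8.66e-04) and were not called with the trend removed (0.13 and 0.07).

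Some ion channel and receptor genes were called. Of 36 potassium channel genes 5 rose (13.9%, against 2.57% of all genes) and 0 fell (trend removed 2): Kcnip4, Kcnb2 by 0.46 (adjusted p = 0.00204), Kcnh7 by 0.49 (adjusted p = 0.0153), Kcnd2 by 0.30 (adjusted p = 0.0254) and Kcnma1 by 0.21 (adjusted p = 0.0409), of which 2 were called without P301S normoxia replicate 2. Of 41 glutamate receptor and scaffold genes Dlgap2 and Grm7 rose by 0.34 (adjusted p = 0.00306) and 0.32 (adjusted p = 0.0132) and Cnih2 fell by 0.34 (adjusted p = 0.0465). These calls made up 4.88% higher and 2.44% lower, against 2.57% and 3.78% of all genes. In that list 1 rose and 1 fell with the trend removed. Of 21 GABA genes only Gabbr1, the GABA-B receptor subunit, fell, by 0.13 (adjusted p = 0.0475). Of 36 presynaptic genes Syp, synaptophysin, fell by 0.22 (adjusted p = 0.0344) and Rab3a, counted at under 3 CPM in every library, by 0.99 (adjusted p = 0.0453). Genes that fell made up 4.76% of the GABA and 5.56% of the presynaptic list, near the 3.78% of all genes. In both lists 0 fell with the trend removed. With 1 normoxia library left out, 0 GABA genes fell in 9 of 11 fits and 0 presynaptic genes in 6. Of the 23 immediate early genes, which neuronal activity raises, edgeR called 0 (lowest adjusted p = 0.0709), with a median of -0.10. An unadjusted p below 0.05 was found for 8 of them, and DESeq2 called 3 and limma voom 0. Of these genes 2 fell with the trend removed and 4 without WT normoxia replicate 1. In 8 of 11 fits with 1 library left out 0 fell.

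Nuclear non-coding RNAs rose in 3 of 12 cases (25%, against 2.57% of all genes), and in 1 with the trend removed. Malat1, a nuclear speckle RNA, was at 1400.5, 1562, 1523, 1562 and 1356 CPM in P301S and 733 to 1481 (median 999.9) CPM in WT (log2 0.53, SE 0.15, adjusted p = 0.0387). WT replicate 1 lay within the P301S range and the other 5 WT libraries below it, and the call was lost in 9 of 11 fits with 1 library left out. Lncpint, a p53-induced long non-coding RNA, was at 9.08, 16.9, 17.9, 23.6 and 13.1 CPM in P301S and 4.55 to 10.5 (median 7.09) CPM in WT (log2 1.11, SE 0.245, adjusted p = 0.012), the groups overlapping. Snhg14, the long transcript over the imprinted Ube3a locus, rose by 0.29 (adjusted p = 0.0109) and was at -0.09 with the trend removed (adjusted p = 0.454).

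**Figure D4:**
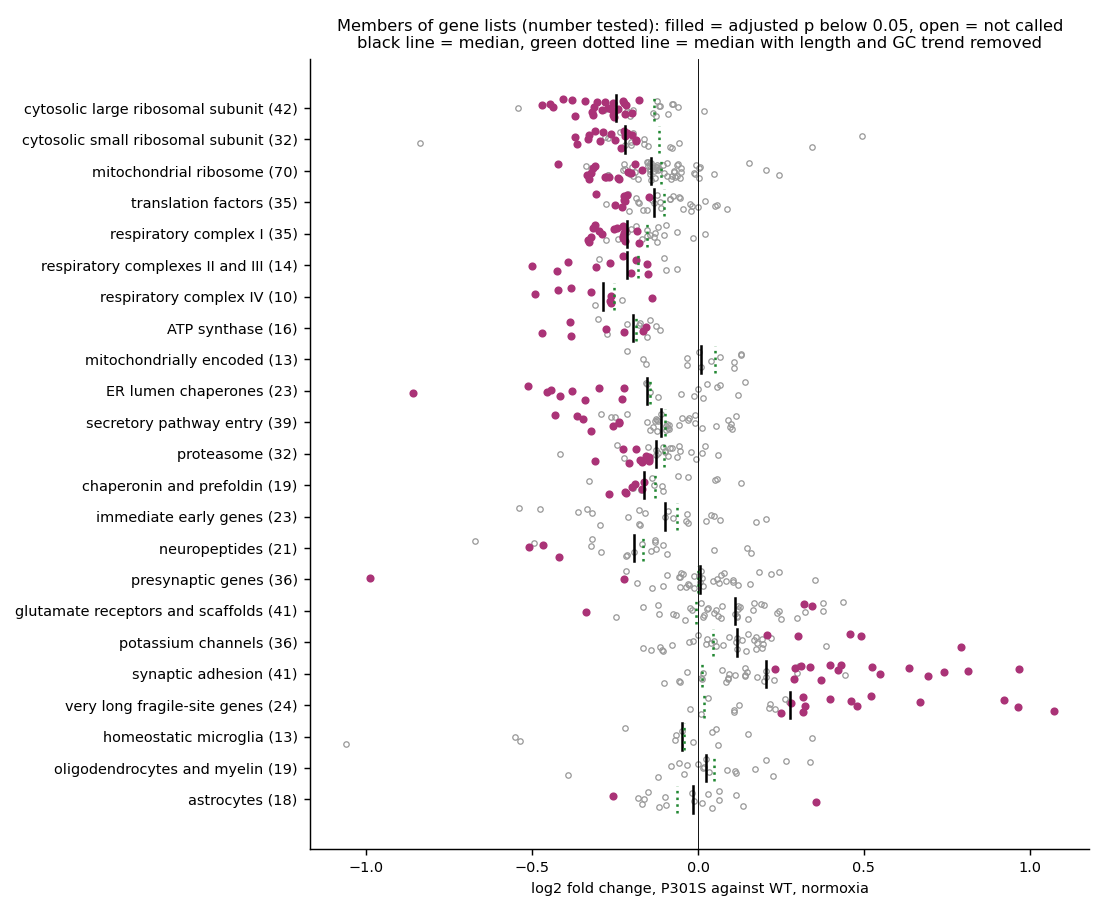
Log2 fold changes (x axis) of the tested members of 23 gene lists (rows, number tested in brackets); filled points were called, open points were not, black lines are list medians and green dotted lines the medians with the length and GC trend removed. Ribosomal, respiratory and ER lists lie to the left of 0, and the medians of synaptic adhesion (0.20) and fragile-site genes (0.28) fall to 0.01 and 0.02 once the trend is removed.

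Single markers of hippocampal neurons were called. C1ql2, a secreted synapse organiser of dentate granule cell mossy fibres, was at 35.2, 37.5, 23.8, 30.3 and 38.4 CPM in P301S and 43.8 to 71.7 (median 57.8) CPM in WT (log2 -0.78, SE 0.171, adjusted p = 0.0115), without overlap; with the trend removed its adjusted p was 0.0621 (-0.58). The other markers of dentate granule cells held 1 that rose, Maml2, and a list median of 0.02 over 18. Calls made up 5.56% of that list in each direction, against 2.57% higher and 3.78% lower over all genes. None (0) of the 18 was called with the trend removed. Bok, a Bcl-2 relative enriched in CA3, was at 35.5, 26.4, 26.9, 25.0 and 26.4 CPM in P301S and 28.9 to 49.2 (median 46.9) CPM in WT (log2 -0.66, SE 0.124, adjusted p = 0.00509). For Bok, WT replicate 1 lay within the P301S range. Bok was the only called gene of 16 CA2 and CA3 markers (6.25%), and 1 of them fell with the trend removed. Of 14 CA1 markers edgeR called 0 (lowest adjusted p = 0.0829); 3 had an unadjusted p below 0.05, DESeq2 called 1 and limma voom 0. Of 13 markers of progenitors and immature neurons edgeR also called 0 (lowest adjusted p = 0.31); 0 had an unadjusted p below 0.05, DESeq2 called 0 and limma voom 0.

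Neuropeptide RNAs leaned lower: 18 of 21 fold changes were negative and 3 genes fell (trend removed 1). Those 3 made up 14.3%, against 3.78% of all genes (1.93% with the trend removed). Npy, neuropeptide Y of hippocampal interneurons, was at 18.6, 20.4, 16.1, 15.3 and 18.9 CPM in P301S and 21.4 to 29.1 (median 25.3) CPM in WT (log2 -0.51, SE 0.0874, adjusted p = 0.00266), without overlap, and was still called with the trend removed (-0.42, adjusted p = 0.0126). Sst, somatostatin of another interneuron class, was at 111, 100.2, 102, 80.4 and 88.4 CPM in P301S and 101 to 154 (median 129) CPM in WT (log2 -0.42, SE 0.107, adjusted p = 0.0235). Vgf, a secreted granule protein, was at 138, 108, 117, 99.3 and 107 CPM in P301S and 112 to 193 (median 163) CPM in WT (log2 -0.47, SE 0.135, adjusted p = 0.0416). Sst and Vgf overlapped between the groups, and Npy alone was left when WT normoxia replicate 5, among others, was left out. Among 16 interneuron markers Adarb2, a marker of caudally derived interneurons, rose by 0.43 (adjusted p = 7.70e-04), so the markers called did not share a direction. Of those 16, 2 rose and 2 fell, and 1 rose and 1 fell with the trend removed.

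Markers of glia, immune cells and vessels showed almost no calls. Of 162 tested, 2 rose and 2 fell, against 2.57% and 3.78% of all genes, and the median was 0.00. Of the 70 markers of microglia, complement and interferon response, Cst7, a cystatin of disease-associated microglia, rose and Fth1, the ferritin heavy chain present in all cell types, fell. Cst7 was at 1.08, 0.558, 0.291, 0.572 and 0.749 CPM in P301S and 0.162 to 0.331 (median 0.243) CPM in WT (log2 1.34, SE 0.342, adjusted p = 0.0235), so the rise rests on levels near or below 1 CPM, with P301S replicate 1 the highest and replicate 3 within the WT range. Fth1 was at 1038, 852, 792, 758 and 931 CPM in P301S and 976 to 1195 (median 1118) CPM in WT (log2 -0.33, SE 0.0716, adjusted p = 0.0102), with P301S replicate 1 inside the WT range.

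Markers of homeostatic microglia had a median of -0.05 over 13, with 5 positive and 8 negative fold changes. An unadjusted p below 0.05 was found for 5 of these 13 (22.8% of all genes). Such a p was found for 7 of 20 disease-associated, 1 of 14 complement and 7 of 23 interferon and MHC markers. In these 4 lists DESeq2 called 1, 3, 0 and 1 and limma voom 0, 3, 0 and 0. The homeostatic markers Fcrls and Aif1 were at log2 fold changes of -1.06 and -0.54 and did not pass the test (adjusted p = 0.0581 and 0.152). The antigen presentation gene Cd74 was at 20.6, 2.71, 5.58, 11.9 and 1.97 CPM in P301S and 1.14 to 4.38 (median 2.52) CPM in WT, an uneven spread that did not pass either (log2 1.66, SE 0.562, adjusted p = 0.0795). Of 18 astrocyte markers Gpc5, a glypican, rose by 0.35 (adjusted p = 0.00509) and Mlc1, an astrocyte end-foot membrane protein, fell by 0.26 (adjusted p = 0.0359); with the trend removed Gpc5 was at 0.09 (adjusted p = 0.431). Of 13 markers of reactive astrocytes, 30 of the oligodendrocyte lineage and 31 of endothelium and mural cells, edgeR, DESeq2 and limma voom called 0. Unadjusted p below 0.05 were found for 2, 3 and 5 of them, and the lowest adjusted p were 0.111 (reactive astrocytes), 0.124 (myelin) and 0.0994 (endothelium). These tests do not show that glial RNAs were equal, and Gfap and P2ry12, leading markers of reactive astrocytes and microglia, gave no value.

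Markers of tissue that borders the hippocampus differed between dissections. All 16 choroid plexus markers had negative fold changes (median -0.43), 14 of 15 ependymal markers did (median -0.23), and meningeal fibroblast markers had a median of 0.40 over 14; edgeR called 0 of these, with lowest adjusted p of 0.309, 0.228 and 0.0618. Unadjusted p below 0.05 numbered 0, 0 and 1, DESeq2 called 0, 0 and 1, and limma voom called 0. The summed level of the choroid plexus list ran from 150.2 to 3870.2 CPM in WT and from 659 to 3514 CPM in P301S. When the choroid plexus score entered the fit as a covariate, 1198 genes were called in normoxia, and without the 6 libraries of the study with the lowest score 389 were. Among those 6, only WT normoxia replicate 4 belongs to the comparison. The rest are hypoxia libraries, which enter only the shared estimate of the spread. Without WT normoxia replicate 4 alone, 789 genes were called. Among markers of neighbouring regions, Rora, a nuclear receptor of thalamic neurons and the clock, rose by 0.59 (adjusted p = 0.0395) and Fn1, fibronectin, by 0.36 (adjusted p = 0.0149), with list medians of 0.27 (thalamus and habenula) and 0.25 (neocortex and subiculum). They were the only calls in these lists, 7.14% of 14 and 6.25% of 16, against 2.57% of all genes. With the trend removed 0 and 1 rose. With 1 normoxia library left out, 0 rose in 8 (thalamus and habenula) and 2 (neocortex and subiculum) of 11 fits.

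Other called genes stood outside these groups. Slc23a4, a nucleobase transporter, was at 1.76, 2.06, 1.62, 1.18 and 1.42 CPM in P301S and 0.446 to 0.992 (median 0.85) CPM in WT (log2 1.01, SE 0.195, adjusted p = 0.00511), without overlap. Akr1e1, an aldo-keto reductase, was at 13.9, 13.7, 14.6, 6.03 and 12.7 CPM in P301S and 14.3 to 30.3 (median 23.4) CPM in WT (log2 -0.87, SE 0.254, adjusted p = 0.0444), where P301S reached just into the WT range. Fam107a, a stress-regulated actin-binding protein, was at 325, 253, 298, 321 and 316 CPM in P301S and 373 to 432 (median 382) CPM in WT (log2 -0.37, SE 0.0712, adjusted p = 0.00509), without overlap. H2-Q2, a class I histocompatibility gene of a polymorphic locus, was at 0.947, 0.301, 0.499, 0.458 and 0.709 CPM in P301S and 0 to 0.124 (median 0.022) CPM in WT (log2 3.67, SE 0.627, adjusted p = 0.00149), without overlap. Its reads may be split with near-identical copies, and the mice were of mixed background. In sterol handling, Stard4, a cholesterol carrier, rose by 0.41 (adjusted p = 0.00569) without overlap and Ebp, an enzyme of sterol synthesis, fell by 0.28 (adjusted p = 0.0342), the only calls among 21 genes. Calls made up 4.76% of the 21 in each direction, near the 2.57% higher and 3.78% lower of all genes. Of the 21, 1 rose and 0 fell with the trend removed. With 1 normoxia library left out, 0 fell in 8 of 11 fits.

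The remaining genes were named for a low p or for a large change. Dab1, the intracellular adaptor of reelin signalling, and Hs6st3, a heparan sulphate sulphotransferase, rose without overlap by 0.29 (adjusted p = 0.00127) and 0.57 (adjusted p = 0.00127). With the trend removed Hs6st3 was still called (0.44, adjusted p = 0.00845) and Dab1 was not (0.04, adjusted p = 0.722). Sgcz, a sarcoglycan, and Il1rapl2, a relative of Il1rapl1, rose by 0.96 (adjusted p = 0.0128) and 0.97 (adjusted p = 0.0206), and neither was called with the trend removed (adjusted p = 0.0595 and 0.0872). Atp6v1b1, a proton pump subunit, and Tbx15, a T-box factor, rose by 0.87 (adjusted p = 0.0455) and 0.86 (adjusted p = 0.0403) at under 3 CPM. Among genes that fell, Scand1 changed by -1.38 (adjusted p = 0.036), the long non-coding RNA Mirt1 by -0.74 (adjusted p = 0.0141), Bex4 by -0.73 (adjusted p = 0.036) and the transcription factor Dmrta2 by -0.72 (adjusted p = 0.0237). Ppp1r1b, the phosphatase inhibitor DARPP-32, changed by -0.78 (adjusted p = 0.0293), though 75.4% of it lies under other genes. The processed pseudogenes Dynlt1-ps1 and Rps25-ps1 changed by -1.05 and -0.73 (adjusted p = 0.0273 and 0.0387). Cldn34c1, a claudin-like gene, was at 0.043, 0.0429, 0.0416, 0.153 and 0.0788 CPM in P301S and 0 to 5.45 (median 1.90) CPM in WT (log2 -4.88, SE 1.33, adjusted p = 0.0302), but 3 of the 6 WT libraries were as low as P301S. With 1 library left out, the calls of Atp6v1b1, Scand1, Bex4, Tbx15, Ppp1r1b, Rps25-ps1, Cldn34c1, Dynlt1-ps1 and Dmrta2 were lost in 4 to 9 of 11 fits.

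The same genes were then set beside the hypoxia libraries, which share no library with the normoxia comparison. Of the 672 genes that fell in normoxia, 618 (92%) also had a negative fold change in hypoxia, with medians of -0.28 and -0.15, and 121 fell there as well (1.34% of all genes fell in hypoxia). Of the 458 that rose, 353 (77.1%) were positive in hypoxia, with medians of 0.35 and 0.08, and 13 rose there (0.528% of all genes rose). Over all tested genes 63.2% had the same sign. The oxidative phosphorylation genes had a hypoxia median of -0.16 and the cytosolic ribosomal genes -0.21, both negative as in normoxia. Synaptic adhesion genes had a hypoxia median of 0.08 with 0 of 41 called by edgeR (8 at an unadjusted p below 0.05, 2 by DESeq2, 0 by limma voom), against 0.20 in normoxia. Over all genes 18.2% had an unadjusted p below 0.05 in hypoxia. The longest 10% of genes had a median of 0.08 and the shortest 10% of -0.12 in hypoxia, against 0.11 and -0.17 in normoxia, so the relation with length was present in both pairs of groups.

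**Figure D5:**
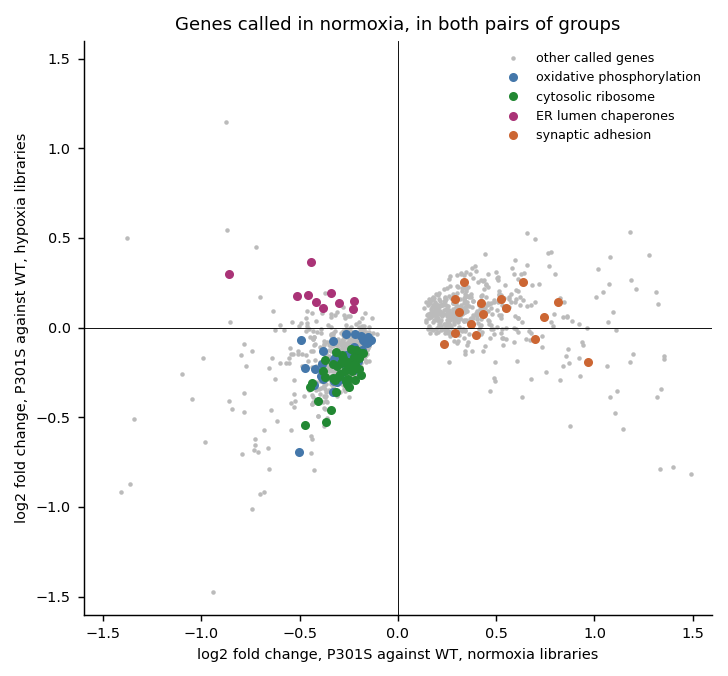
Log2 fold change of P301S against WT in the normoxia libraries (x axis) and in the hypoxia libraries (y axis) for the genes called in normoxia; 1117 of 1130 lie inside the axes. All 42 called oxidative phosphorylation genes (blue) and all 42 called ribosomal genes (green) lie below 0 on both axes, while the 10 called ER lumen chaperones (purple) lie below 0 in normoxia and above 0 in hypoxia; of the 16 called synaptic adhesion genes (orange) 11 lie above 0 on both.

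A test of the difference between the genotype effects passed for 7 genes (0.0394%), for 5 with a higher difference in hypoxia (0.0281%) and 2 with a lower one (0.0112%), and 1678 (9.43%) had an unadjusted p below 0.05. Besides Calr and Hspa5 these were Fam107a (-0.37 in normoxia, 0.19 in hypoxia, adjusted p = 0.0407), Akr1e1 (-0.87 and 1.15, adjusted p = 0.0407), Ptgs2, the inducible cyclooxygenase (-0.20 and 0.58, adjusted p = 0.0407), H2-Q2 (3.67 and -0.75, adjusted p = 0.0407) and Mybpc2, a myosin-binding protein (1.49 and -0.81, adjusted p = 0.0407). All 7 adjusted p lay close to the threshold. With 1 of the 23 libraries left out, each of the 7 was called in 3 to 7 of 23 fits, and in 13 fits 0 genes passed. None (0) passed with limma voom, with the length trend alone removed or without the 6 libraries lowest in choroid plexus markers. With the length and GC trend removed 8 genes passed, 6 with a higher and 2 with a lower difference in hypoxia. For the other genes that were called in normoxia and not in hypoxia, a difference between the conditions was not shown.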

How the data were processed

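RNA of 23 hippocampal libraries was sequenced by the authors, who deposited 1 table of raw counts per library. Per the file headers, read pairs were counted with featureCounts 1.6.2 over whole gene bodies of Ensembl release 90, introns included and without strand, from alignments with duplicates removed. HISAT2, the build mm10 and DESeq2 1.6.3 are named in the submitters' processing notes. The kit is described as stranded in the labels, so reads of antisense neighbours cannot be told apart here. No column of another sample was present (0).

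Of 52636 genes, 17788 passed edgeR's filterByExpr (minimum count 10). TMM factors and a quasi-likelihood model of 4 group means (edgeR 4.0.16, robust, R 4.3.3) were fitted to all 23 libraries, so the hypoxia libraries also inform the spread, and tests were two-sided at an adjusted p of 0.05. Log2 CPM for the length figure used a pseudocount of 0.1. The scripts were tested on simulated data. Symbols and gene models came from GENCODE M21, matched by Ensembl identifier (17756 of the tested genes), and promoters from RefSeq. Trends with length and GC content were fitted per library with mgcv 1.9.3 and passed to edgeR as offsets. Alternatives were DESeq2's size factors, no or a stricter filter, the 2 groups alone, the trends removed, a choroid plexus covariate, low-choroid libraries left out, genes with over 50% overlap set aside, DESeq2 1.42.0, limma voom 3.58.1 and each library left out. Replicates were compared pairwise, and the chi-square of their counts over its degrees of freedom was 4.82 or more in all pairs. Intervals were not computed for CPM, and the floor of 3 counts covers counting error only. pandas 2.3.3, numpy 2.4.6 and matplotlib 3.10.9 were used.

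The members and the 59 gene lists were chosen with earlier results of these data known. Genes named are Mapt, the 12 highest and 12 lowest fold changes among called genes averaging 1 CPM or more and without a predicted name, the 12 lowest p, up to 5 members of each described list by p and called members that moved against their list; a few genes that met this rule are not reported here. Named after their values were seen were Atp5h, Canx, Creld2, Dnajc3, Hsp90b1, Hspa5, Pdia4, Ttr, Fam107a, H2-Q2, Mybpc2 and Ptgs2.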

Additional observations from a re-analysis of the deposited data

Results flagged for a closer look

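In 256 groups of libraries (a gene or library measure of the report in WT or P301S normoxia), the highest or the lowest library was checked for its distance from the rest by Dixon's criterion. Of these, 16 groups had such a library, close to the 1 in 20 that chance gives. The groups are not independent, since the same libraries enter many of them. Most of the 16 concerned the first replicate of either group. P301S normoxia replicate 1 was far above the other P301S libraries for Bok (35.5 CPM), Cyc1 (109 CPM), Eif5a (184 CPM), Mrps12 (19.1 CPM), Rpl12 (70.5 CPM), Stmn3 (238 CPM) and Tubb5 (305 CPM), all of which fell in P301S. WT normoxia replicate 1 was far below the other WT libraries for Atp5b (759 CPM), Bok (28.9 CPM) and Eif5a (176 CPM), which fell, and far above them for Kcnh7 (82.3 CPM) and Kctd16 (26.3 CPM), which rose. In each case the library lay on the side of the other genotype. At Prn and Lamr1-ps1, which were named for their difference between the labelled groups, both libraries matched their genotype labels. Akr1e1 was far lower in P301S normoxia replicate 4 (6.03 CPM) than in the other P301S libraries, and Il1rapl2 far higher in WT normoxia replicate 6 (6.12 CPM) than in the other WT libraries. Mitochondrial RNAs took 2.72% of P301S normoxia replicate 5, above the rest of its group. The choroid plexus score, the mean log2 level of the choroid plexus markers relative to all libraries, was -2.73 in WT normoxia replicate 4, below the rest of its group.

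The genotype effect differed between hypoxia and normoxia, by edgeR's test of the difference itself, for Ptgs2 (difference of log2 fold changes 0.78), Hspa5 (0.81), Calr (0.53), Fam107a (0.56), Akr1e1 (2.02), Mybpc2 (-2.30) and H2-Q2 (-4.42), each difference being hypoxia minus normoxia. With 1 of the 23 libraries left out, each was called in 3 to 7 of 23 fits. None (0) was called with limma voom, with the length trend alone removed, without the 6 libraries lowest in choroid plexus markers or with the legacy quasi-likelihood estimate. With the length and GC trend removed 8 genes passed the test.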

How the results depend on the processing

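The 1130 calls in normoxia became 682 without a filter on low counts, 368 when the 11 normoxia libraries were fitted alone, 532 with the length and GC trend removed, 372 with the length trend alone removed, 389 without the 6 libraries lowest in choroid plexus markers, and 365 to 2069 with 1 library left out. The other alternatives gave 1054 to 1639. Of the 6 libraries lowest in choroid plexus markers, only WT normoxia replicate 4 is a normoxia library. In hypoxia the 333 calls became 213 without a filter, 182 with only the 2 groups fitted, 123 with the length trend removed, 16 without those 6 libraries, 854 with DESeq2, and 91 (without WT hypoxia replicate 2) to 618 (without P301S hypoxia replicate 6) with 1 library left out. The 7 interaction calls became 4 without a filter, 4 with at least 1 CPM required in 5 libraries, 13 with a choroid plexus covariate, 52 with DESeq2, and 0 with the length trend removed, without those 6 libraries, with limma voom and with the legacy quasi-likelihood estimate, which was chosen after seeing the data; with 1 library left out they ran from 0 to 13. With the length and GC trend removed the interaction calls numbered 8. Fewer samples in a fit leave fewer degrees of freedom, and otherwise the cause was not tested.

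Of 112 named genes called in normoxia, 111 were still called with DESeq2's size factors, 107 with DESeq2 and 107 with limma voom, 66 with the length and GC trend removed, and 66 without P301S normoxia replicate 2. Direction turned for Kcnma1 (-0.0076 with the length and GC trend removed, -0.0086 with the length trend removed), Nrxn3 (-0.0014, length trend removed) and Snhg14 (-0.0914, length and GC trend removed). No paired analysis was possible because the labels give no replicate numbers that are shared between the genotypes; replicates were numbered in accession order. A gene counted at a few reads per library, such as H2-Q2 in WT, is limited by depth, and genes under other genes by the counting.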
